A study of Mus musculus with 96 samples.

Results

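The G1 cyclins, their kinases and their inhibitors were followed as 10 genes across single granulocyte-monocyte progenitors (GMP): the D cyclin genes Ccnd1, Ccnd2 and Ccnd3, the E cyclin genes Ccne1 and Ccne2, the kinase genes Cdk2, Cdk4 and Cdk6, and the inhibitor genes Cdkn1a (p21) and Cdkn1b (p27). They were chosen by symbol, and all 10 were found among the 23955 genes of the expression table. The cells were 96 bone marrow GMP of C57BL/6 mice, all of the genotype ThPOK-/-, a knockout of Zbtb7b, which encodes the transcription factor ThPOK. They were enriched for CD117, sorted and captured singly on a Fluidigm C1 chip. No treatment, age, animal or number of animals is given, so the 96 cells were treated as 1 sample, cells were not replicates, and no test between states was possible. An annotation by the authors named the states of 69 cells: 31 cells of IG2, 12 of proNeu-1 and 26 of Multi-Lin-1. The other 27 cells have no state. How the states were assigned is not given in the sources used here, so all differences between them are descriptions. Cell names carry the label number 078 or 079, with 48 cells each, whose meaning is not given. Wild-type cells were not analysed here.

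In G1, D cyclins bind Cdk4 or Cdk6 and the active kinases begin the phosphorylation of Rb family proteins, which releases E2F factors. E2F factors induce E cyclins, which bind Cdk2 and carry the cell into S phase. Cdkn1b and Cdkn1a proteins inhibit cyclin-Cdk2 and also take part in the assembly of D cyclin complexes. Each D cyclin gene has its own pattern across tissues, and blood cells are known for their use of Ccnd2, Ccnd3 and Cdk6. Cdkn1b protein is largely set by its turnover through the ubiquitin ligase subunit Skp2, which RNA does not show.

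A pair of promoters are shown because, of the members compared between IG2 and Multi-Lin-1, Cdk4 had the highest difference and Cdkn1b the lowest, as described below. Sequences are from RefSeq on GRCm38.p6, cover the 250 bases before the annotated start on the plus strand, and run 5′ to 3′ in lower case. Capitals mark CACGTG, the E-box that Myc and related factors can bind.
Cdk4, chr10:127063285-127063534: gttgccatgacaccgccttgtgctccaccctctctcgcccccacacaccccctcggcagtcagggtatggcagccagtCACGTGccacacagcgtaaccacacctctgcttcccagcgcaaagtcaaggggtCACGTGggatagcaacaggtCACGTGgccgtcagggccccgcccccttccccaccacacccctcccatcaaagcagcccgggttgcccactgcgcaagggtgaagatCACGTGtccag
Cdkn1b, chr6:134920151-134920400: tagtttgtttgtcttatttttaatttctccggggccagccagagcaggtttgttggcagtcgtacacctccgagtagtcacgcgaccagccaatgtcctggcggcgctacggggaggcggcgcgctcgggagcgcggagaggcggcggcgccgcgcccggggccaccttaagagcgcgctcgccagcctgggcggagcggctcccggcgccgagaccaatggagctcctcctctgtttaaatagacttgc
The Cdk4 window held CACGTG 4 times, at 172, 118, 98 and 11 bases before the start. CACGTG reads the same on both strands. Windows of the same 250 bases before the start held it at least once in 6.02% of 32851 promoters, and 4 times or more in 7 (0.0213%). The Cdkn1b window held none, and of the other members with an entry Cdk6 held 1. The E2F motif TTTGGCGC or TTTCGCGC, read on either strand, was in 0 of the 9 windows of 7 members and in 0.654% of all windows. A match is a description of letters, and no factor's binding was measured.

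Expression is given as log2(TPM + 1), where TPM is a transcript abundance that is scaled for gene length and sums to 1e+06 in each cell, so levels may be set between genes. Detection means a TPM of at least 1 in the cell, and a TPM of 30 served as a stricter level. The stricter level matters here, since Elane, a neutrophil protease gene, was listed at a TPM of at least 0.82 in every cell, also where its state had a median of only 7.42 (Multi-Lin-1). Lepr, a receptor gene of stromal cells, reached a TPM of 1 in 91.7% of cells and one of 30 in 3.12%. Low values therefore do not by themselves show that a cell expresses a gene. Between 1019 and 5203 genes were detected per cell, with medians of 3940 for IG2, 4127.5 for proNeu-1, 2950 for Multi-Lin-1 and 2613 for the cells with no state. Of 12 markers of GMP and their granules, 10 reached a TPM of 1 in 50% of cells or more, a level that alone does not show expression. By group it was 11 in IG2, 11 in proNeu-1, 8 in Multi-Lin-1 and 8 without a state. Their summed TPM had a median of 39899 in IG2, 72900 in proNeu-1, 1926 in Multi-Lin-1 and 1579 without a state. The targeted Zbtb7b reached a TPM of 1 in 2 cells and never above 2.12.

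Across all cells the members spanned the range of expression. Cdk4 had a mean TPM of 681, with 0.948% of all genes higher, and Ccnd2 followed with 143.5 and Ccnd3 with 83.8. Cdkn1b (41), Cdk2 (37.2) and Cdk6 (29.5) were lower, and Ccne2 (12.7), Cdkn1a (5.69), Ccne1 (2.36) and Ccnd1 (0.38) were lowest. Of the 10 members, 5 were detected in at least 50% of cells: Cdk4 (88.5%), Cdkn1b (87.5%), Cdk2 (72.9%), Ccnd2 (63.5%) and Ccnd3 (60.4%). Of all genes, 2.22% were detected in at least as many cells as Cdk4 and 6.88% in at least as many as Ccnd3. At a TPM of 30 only Cdk4 (82.3%) was. By share of cells Cdkn1b came next to Cdk4, while by mean TPM Ccnd2 and Ccnd3 did. A cell held a median of 4 members, between 1 and 8.

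**Figure D1:**
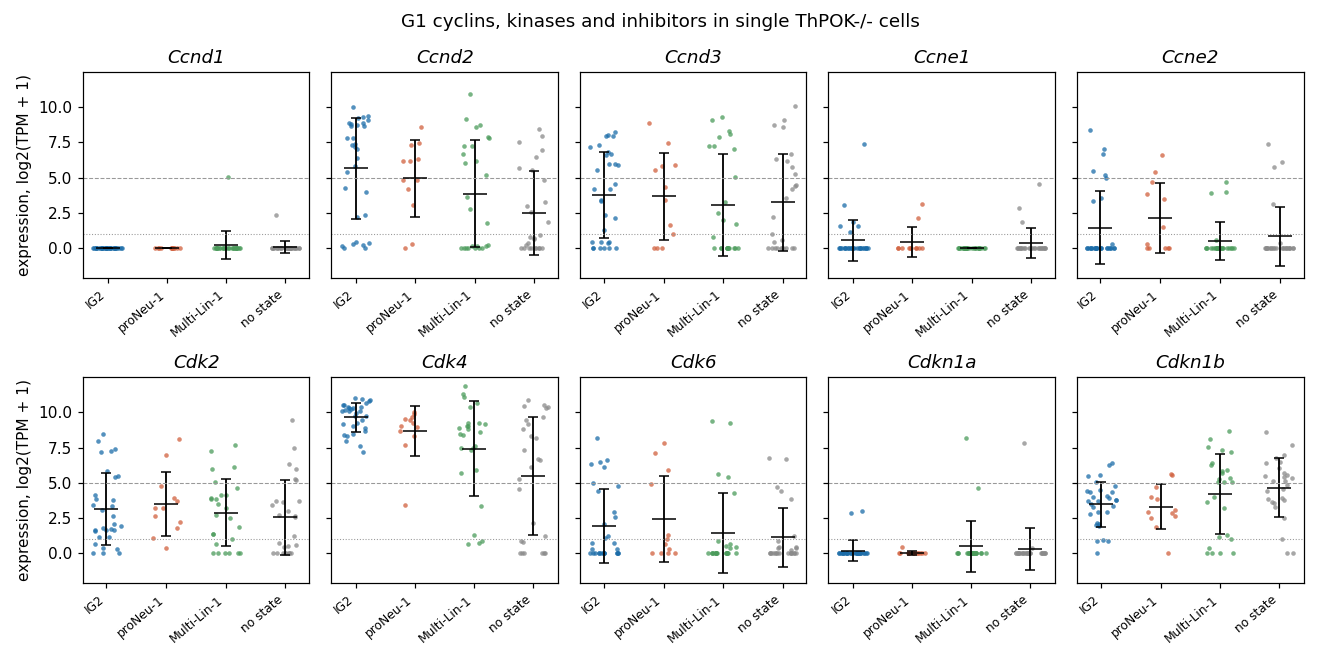
Expression of each of the 10 genes in single cells, as log2(TPM + 1) on the vertical axis, by state on the horizontal axis (IG2 n = 31, proNeu-1 n = 12, Multi-Lin-1 n = 26, no state n = 27 cells). Points are cells, bars are mean ± SD over cells, the dotted line is a TPM of 1 and the dashed line a TPM of 30; all 31 IG2 cells lie above the dashed line for Cdk4, while Cdkn1b lies mostly between the lines in IG2 and often above the dashed line in Multi-Lin-1.

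Among the D cyclins, Ccnd2 and Ccnd3 were each found in most cells and Ccnd1 in almost none. Ccnd1 was detected in 2 of 96 cells, 1 Multi-Lin-1 cell at a TPM of 32.5 and 1 cell without a state at 3.94. It was found in 0 of 31 IG2 cells, a count that allows up to 9.68%, and in 0 of 12 proNeu-1 cells, a count that allows up to 25%.

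Ccnd2 reached the highest values in the state IG2 as a group and in a single Multi-Lin-1 cell. In IG2 its log2 values ran from 0 over a median of 7.20 to 10, with 24 of 31 cells detected. In proNeu-1 they ran from 0 over 5.51 to 8.60, with 10 of 12 detected. In Multi-Lin-1 they ran from 0 over 3.19 to 10.9, with 15 of 26 detected, and without a state from 0 over 0.76 to 8.43, with 12 of 27. Every group held cells at 0 and cells above 8, so the groups overlapped over nearly their whole range. Among cells in which it was detected, the mean was 7.26 ± 2.23 (SD) in IG2, 5.89 ± 1.68 in proNeu-1, 6.64 ± 2.49 in Multi-Lin-1 and 5.33 ± 2.25 without a state.

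Ccnd3 was more even. Its median log2 value was 4.18 in IG2, 3.88 in proNeu-1, 1.26 in Multi-Lin-1 and 2.20 without a state, each group again running from 0 to above 8. It was detected in 67.7%, 75%, 50% and 55.6% of these cells, with exact intervals that overlap, for example 48.6 to 83.3% in IG2 and 29.9 to 70.1% in Multi-Lin-1. A processed pseudogene of Ccnd3 is annotated on chromosome 4 (139345300 to 139346180 on GRCm38), so reads shared with it may be counted in either place.

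Single cells often held both of these D cyclins. Ccnd2 and Ccnd3 were detected together in 42 of 96 cells, 1 of which also held Ccnd1. Ccnd2 was the lone D cyclin in 18 cells and Ccnd3 in 16, and none of the 3 D cyclins was found in 19 (19.8%). Both were found together in 17 of 31 IG2 cells and 8 of 12 proNeu-1 cells, against 10 of 26 Multi-Lin-1 cells and 7 of 27 without a state. No D cyclin was detected in 3, 1, 8 and 7 cells of these groups. The groups also differed in genes detected. Among cells with 3000 to 4500 genes detected, Ccnd2 was found in 72.7% of IG2 and 80% of Multi-Lin-1 cells. Ccnd3 was found there in 72.7% and 70%, and joint detection was not counted in these cells. Across the 96 cells the values of Ccnd2 and Ccnd3 showed little relation (Spearman's rho 0.15, Pearson's r 0.11), with rho -0.14 in cells numbered 078 and 0.45 in those numbered 079.

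Cdk4, the kinase partner of the D cyclins, was the highest member in each group. In IG2 its log2 values ran from 7.20 over a median of 10.1 to 11, a spread of 1.04 (SD) that was the narrowest of any widely detected member. In proNeu-1 they ran from 3.42 over 9.15 to 10, in Multi-Lin-1 from 0.63 over 8.54 to 11.8, and without a state from 0 over 6.58 to 10.9. All 31 IG2 cells and 11 of 12 proNeu-1 cells were at a TPM of 30 or more, against 21 of 26 Multi-Lin-1 cells and 16 of 27 without a state. The groups overlapped at the top while their medians differed, and 3 Multi-Lin-1 cells and 8 cells without a state were under a TPM of 1. Among cells in which it was detected, the mean was 9.65 ± 1.04 (SD) in IG2 and 8.27 ± 2.45 in Multi-Lin-1. Among the 49 cells with 3000 to 4500 genes detected, Cdk4 reached a TPM of 30 in 100%, including all 7 without a state and all 10 of Multi-Lin-1. Its mean there was 9.64 ± 1.03 (SD, n = 22 cells) in IG2 and 8.39 ± 1.35 (n = 10) in Multi-Lin-1.

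Cdk6, the other D cyclin partner, was detected in 29 of 96 cells. Its highest value in a cell was 8.15 in IG2, 7.79 in proNeu-1, 9.40 in Multi-Lin-1 and 6.79 without a state, with medians under 1 in all 4. It was detected in 41.9% of IG2 and 41.7% of proNeu-1 cells, and in 19.2% of Multi-Lin-1 and 22.2% of cells without a state. In cells with 3000 to 4500 genes detected, these shares were 36.4%, 40%, 30% and 28.6%. There Cdk6 reached a TPM of 30 in 13.6% of IG2 and 30% of Multi-Lin-1 cells. Its mean in IG2 minus Multi-Lin-1 was 0.51 over all cells and -0.75 in these cells. Mean TPM of Cdk4 was 681 against 29.5 for Cdk6. A cell with any D cyclin and Cdk4 or Cdk6 was the usual case in IG2 (28 of 31) and proNeu-1 (11 of 12). It was less so in Multi-Lin-1 (15 of 26) and without a state (16 of 27). Among cells with 3000 to 4500 genes detected, Cdk4 was detected in 100%. Ccnd2 was detected there in 72.7% of IG2, 90% of proNeu-1, 80% of Multi-Lin-1 and 71.4% of cells without a state. For Ccnd3 these shares were 72.7%, 70%, 70% and 71.4%. Joint detection was not counted in these cells.

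The E cyclins were found in a minority of cells. Ccne2 was detected in 21 of 96 cells, 8 of 31 in IG2, 6 of 12 in proNeu-1, 3 of 26 in Multi-Lin-1 and 4 of 27 without a state, and its highest log2 values in these groups were 8.39, 6.59, 4.67 and 7.38. Where detected it had a mean of 4.99 ± 1.66 (SD). Ccne1 was detected in 11 cells at a mean of 2.82 ± 1.80, and 10 of them were under a TPM of 30. Ccne1 was seen in 0 of 26 Multi-Lin-1 cells, a count that allows up to 11.5%, and in 6 of 31 IG2 cells (19.4%, interval 7.45 to 37.5%). It was seen in 2 of 12 proNeu-1 cells and 3 of 27 without a state. Among cells with 3000 to 4500 genes detected, its shares in IG2, proNeu-1, Multi-Lin-1 and without a state were 22.7%, 20%, 0% and 42.9%. For Ccne2 these shares were 27.3%, 50%, 10% and 28.6%. The group without a state held 7 cells there.

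Cdk2, the kinase of the E cyclins, was widely found at modest levels. Its log2 values ran from 0 over a median of 2.05 to 8.46 in IG2, from 0.37 over 3.20 to 8.11 in proNeu-1, from 0 over 2.99 to 7.66 in Multi-Lin-1 and from 0 over 2.56 to 9.42 without a state. These ranges coincide almost fully. It was detected in 80.6%, 91.7%, 73.1% and 55.6% of the cells and at a TPM of 30 in 25.8%, 16.7%, 19.2% and 22.2%. Among cells with 3000 to 4500 genes detected, these detection shares were 77.3%, 90%, 90% and 71.4%. At a TPM of 30 they were 31.8%, 20%, 30% and 42.9% there. The mean of Cdk2 in IG2 minus Multi-Lin-1 was 0.25 over all cells and -0.66 in these cells. An E cyclin together with Cdk2 was detected in 25 of 96 cells, and each of those 25 also held a D cyclin with Cdk4 or Cdk6. By group these were 11 of 31 in IG2, 7 of 12 in proNeu-1, 3 of 26 in Multi-Lin-1 and 4 of 27 without a state. Joint detection was not counted in cells with 3000 to 4500 genes detected, so the part of genes detected in these counts was not tested.

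Of the inhibitors, Cdkn1b was detected nearly everywhere and Cdkn1a in 5 cells. Cdkn1a, a target of p53, reached a TPM of 1 in 2 cells each of IG2 and Multi-Lin-1 and in 1 without a state, with a top value of 282 in a Multi-Lin-1 cell. It was found in 0 of 12 proNeu-1 cells, a count that allows up to 25%.

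Cdkn1b was found in most cells of every group, at levels that differed. In IG2 its log2 values ran from 0 over a median of 3.69 to 6.40, and in proNeu-1 from 0 over 2.99 to 5.62. In Multi-Lin-1 they ran from 0 over 5.07 to 8.70, and without a state from 0 over 5.10 to 8.58. Detection was alike, in 87.1%, 91.7%, 80.8% and 92.6% of cells. At a TPM of 30 it was 16.1% in IG2 (5 of 31, interval 5.45 to 33.7%) and 16.7% in proNeu-1 (2 of 12), against 57.7% in Multi-Lin-1 (15 of 26, interval 36.9 to 76.6%) and 51.9% without a state (14 of 27). Most IG2 cells (18 of 31) and proNeu-1 cells (7 of 12) sat between a TPM of 5 and 30, where only 3 of 26 Multi-Lin-1 cells did. The gap is narrower in cells with 3000 to 4500 genes detected, where 22.7% of 22 IG2 cells and 50% of 10 Multi-Lin-1 cells reached a TPM of 30.

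**Figure D2:**
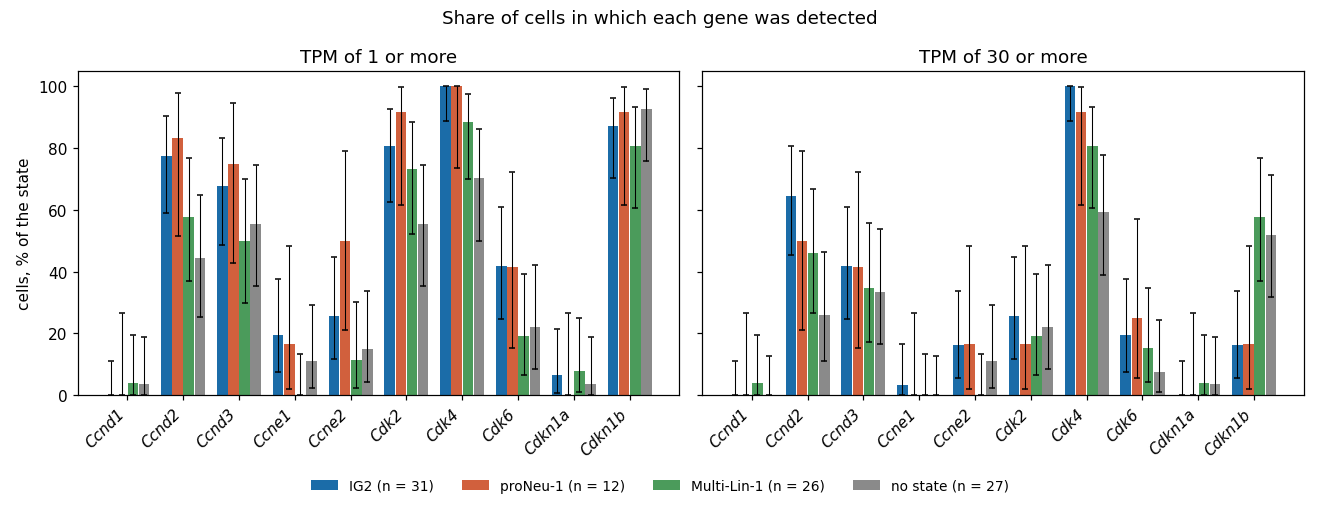
Share of cells, in percent on the vertical axis, in which each gene was at a TPM of 1 or more (left) and 30 or more (right), by state. Error bars are exact 95% binomial intervals that cover only the counting of cells; Cdkn1b is at 80.8% or more in all 4 groups on the left, and at 16.1% in IG2 against 57.7% in Multi-Lin-1 on the right.

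For differences between states, a gene was called where the mean log2 value differed by at least 1 among the 8044 genes detected in at least 10% of cells, which is a rule of size and not a test. Ccnd1 and Cdkn1a were below 10% and were not compared, which left 8 members. The first comparison set IG2 against Multi-Lin-1. Cdk4 was higher in IG2, at 9.65 ± 1.04 (SD, n = 31 cells) against 7.40 ± 3.37 (n = 26), a difference of 2.25. Ccnd2 was higher too, at 5.67 ± 3.58 against 3.85 ± 3.80, a difference of 1.81. These were 2 of 8 members, where 31.1% of all genes compared were higher, and 0 of 8 were lower, where 2.54% of all genes were. The median gene was 0.53 higher in IG2, so beyond that shift Cdk4 was higher by 1.72 and Ccnd2 by 1.28. The count of members called is thus near the background. In cells with 3000 to 4500 genes, 21.7% of all genes were higher and 11.7% lower, with a median of 0.19.

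Both differences are smaller than the spread over cells, whose pooled SD was 2.49 for Cdk4 and 3.70 for Ccnd2. Cdk4 kept a difference of 2.25 in cells numbered 078, 2.15 in those numbered 079 and 1.25 in cells with 3000 to 4500 genes. Ccnd2 did not: it differed by 0.51 in 078, 2.86 in 079 and 0.27 in that window of genes detected. Cdkn1b was not past the rule, with a mean 0.74 lower in IG2, and 4.90% of all genes had a lower difference. Its difference was -0.01 in 078, -1.38 in 079 and -0.13 in the window. The other members lay between 0.25 (Cdk2) and 0.94 (Ccne2). In the window Ccne2 was past the rule at 1.12, and the rest of these lay between -0.75 (Cdk6) and 0.67 (Ccne1).

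The second comparison set proNeu-1 against IG2. Of 8 members 0 were called in either direction, where 13.6% of all genes were higher and 10.2% lower, and the median gene differed by 0.02. Cdk4 came closest at 8.66 ± 1.78 (SD, n = 12 cells) against 9.65 ± 1.04, a difference of -0.996 that lies just within the rule. Ccne2 had a mean 0.70 higher in proNeu-1 and Ccnd2 0.73 lower, and the remaining members differed by 0.49 or less in size.

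The third comparison set cells without a state against Multi-Lin-1. Cdk4 was lower without a state, at 5.48 ± 4.20 (SD, n = 27 cells) against 7.40 ± 3.37, a difference of -1.93. Ccnd2 was lower at 2.50 ± 2.98 against 3.85 ± 3.80, a difference of -1.35. These were 2 of 8 members, where 12% of all genes were lower, and 0 of 8 were higher, where 5.21% were. Among cells with 3000 to 4500 genes, 7 and 10 in number, the differences were -0.02 for Cdk4 and -0.84 for Ccnd2, so neither call held in this window, where 18.2% of all genes were higher and 20.6% lower. In cells numbered 079 Cdk4 differed by -0.99 and with a pseudocount of 10 Ccnd2 by -0.96, both just within the rule. Ccnd3 passed the rule in opposite directions in the label numbers, at -1.10 in 078 and 1.06 in 079. The comparisons share Multi-Lin-1 or IG2 cells, and their values are not independent.

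**Figure D3:**
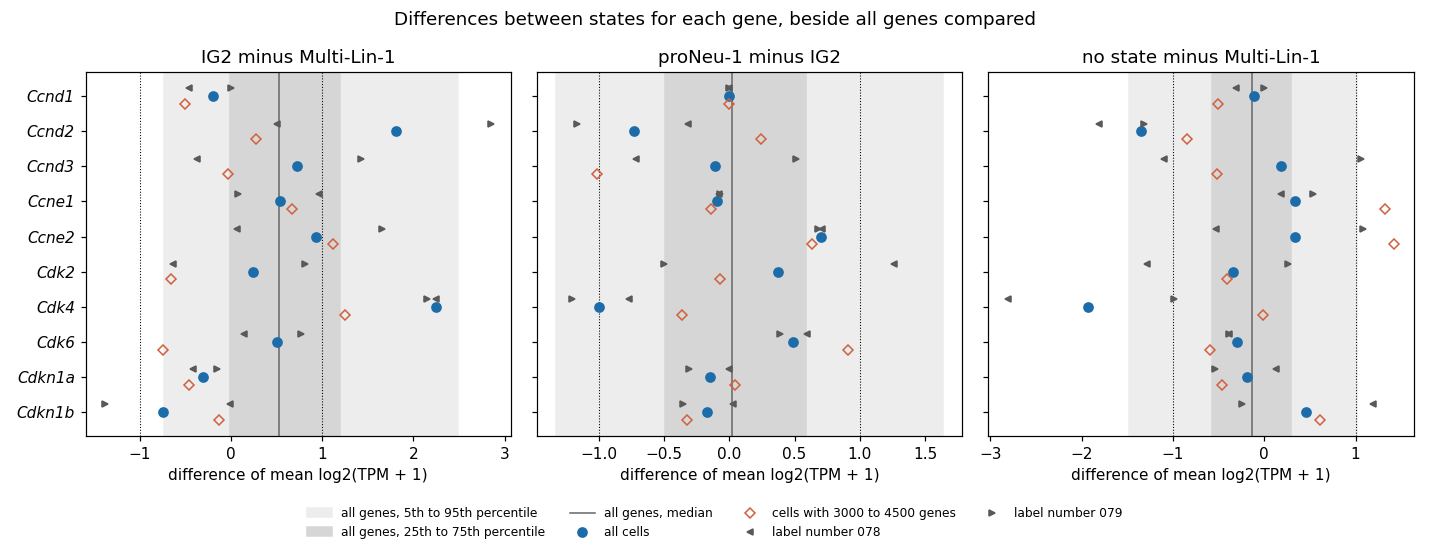
Difference of mean log2(TPM + 1) between states on the horizontal axis for each of the 10 genes, in 3 comparisons. Filled circles use all cells, open diamonds cells with 3000 to 4500 genes detected and triangles the cells of label number 078 or 079; grey bands hold the middle 50% and 90% of all 8044 genes, the solid line is their median and dotted lines the rule of 1. Cdk4 lies at 2.25 in IG2 minus Multi-Lin-1 and stays past 1 in all 4 sets of cells.

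Markers of other lineages moved with these states. The summed TPM of 8 mast cell and basophil markers had a median of 834 in IG2 (range 21.5 to 6275), 454 in proNeu-1 (23.3 to 1355), 996 in Multi-Lin-1 (0 to 9026) and 2781 without a state (0.58 to 78857). That of 12 erythroid and megakaryocyte markers had a median of 32 in IG2 (0 to 1243), 67.4 in proNeu-1 (1.25 to 362), 633 in Multi-Lin-1 (0.50 to 5676) and 916 without a state (0 to 17377). Without a state, 3 of 6 compared mast cell markers (Mcpt8, Ms4a2, Prss34) and 3 of 6 compared erythroid markers (Gata1, Klf1, Car1) were higher than in Multi-Lin-1. Among all genes compared, 5.21% were higher and 12% lower. In cells with 3000 to 4500 genes, 1 of the 6 mast cell markers was higher and 4 lower, and 3 of the 6 erythroid markers were higher and 1 lower. In this window 18.2% of all genes were higher and 20.6% lower. Of 8 T and NK cell markers 4 reached a TPM of 1 in 0 cells, Cd3e and Cd3g among them, but Nkg7, a granule protein gene of NK and T cells, was found in 96.9% of cells. Their summed TPM had a median of 2961 in IG2 (range 691 to 6861), 5441 in proNeu-1 (2532 to 8343), 1385 in Multi-Lin-1 (0 to 8417) and 1298 without a state (0.89 to 4974). Nkg7 was higher by 1.93 in IG2 than in Multi-Lin-1 and by 1.02 in proNeu-1 than in IG2. Of the B cell genes, Pax5 reached a TPM of 1 in 0 cells and Cd79b was 1.49 higher in proNeu-1 than in IG2. Cma1 and Hbb-b1 reached a TPM of 1 in 0 cells. The part of these markers in the differences of the members was not tested.

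Around the members, a list of 13 Rb family and E2F genes was read. Most genes were found in few cells: 6.88% of all genes were in at least as many cells as Ccnd3 (60.4%). The following count is therefore not read as a trait of the list. Of 13 genes, 1 was detected in at least 50% of cells, Tfdp1, the E2F dimer partner (74%), followed by E2f4 (44.8%), a repressive E2F, and E2f8 (39.6%). Rb1 itself was detected in 9.38%. In IG2 minus Multi-Lin-1, 2 of 9 compared genes were higher, Tfdp1 by 1.63 and E2f4 by 1.56, and 0 lower, with a list median of -0.23 beside 0.53 for all genes, of which 31.1% were higher. In cells with 3000 to 4500 genes they differed by 0.27 and 0.93, and 0 of the 9 were higher and 2 lower. In proNeu-1 minus IG2 Tfdp1 and E2f3 were higher, by 1.01 and 1.25, and E2f4 was lower by 1.80, where 13.6% of all genes were higher and 10.2% lower. In the window E2f3 differed by 0.34.

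Other inhibitors were nearly absent. Cdkn2a and Cdkn2b were under a TPM of 1 in all 96 cells, and Cdkn1c and Cdkn2c were detected in 3.12% and 6.25%. Cdkn2d, the p19 inhibitor of Cdk4 and Cdk6, was in 28.1%, and had a mean of 2.33 in IG2 against 1.21 in proNeu-1.

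The later cell cycle genes were read beside all genes compared, of which 31.1% were higher in IG2 than in Multi-Lin-1 and 2.54% lower, and in cells with 3000 to 4500 genes 21.7% and 11.7%. Genes of CDK activation and turnover were higher in IG2 in 6 of 13 compared and lower in 0, with a list median of 0.71 beside 0.53 for all genes, and in the window in 4 and 1. Cks1b, a cofactor in the turnover of Cdkn1b, differed by 3.50 (8.67 against 5.16) over all cells and by 0.42 in the window. Ccnh and Cdk7, parts of the CDK-activating kinase, differed by 1.50 and 1.29, and by 1.10 and 0.29 in the window. Skp2 was detected in 11.5% of cells and differed by -0.22.

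Of the later cyclins and CDKs 5 of 8 were higher in IG2 and 0 lower, Cdk1 by 2.45, Ccnb1 by 2.19 and Ccna2 by 1.96 among them, but in the window 2 were higher and 2 lower, and these 3 genes differed by -0.58, -0.09 and -0.26. Of 19 S phase genes 11 were higher and 0 lower, with a median of 1.47, against 8 and 4 in the window, with a median of 0.71. Of 19 compared G2/M genes 10 were higher and 0 lower, with a median of 1.08, and the direction turned in the window, where 0 were higher and 9 lower, with a median of -0.93. Without a state, 10 of 19 S phase genes were lower than in Multi-Lin-1 and 0 higher, with a median of -1.10 beside -0.13 for all genes, of which 12% were lower and 5.21% higher. In the window 6 were lower and 3 higher, where 20.6% of all genes were lower and 18.2% higher.

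For reference, 3 of 10 housekeeping genes and 9 of 12 GMP and granule markers were higher in IG2 than in Multi-Lin-1 and 0 lower, with medians of 0.18 and 3.04. Of 7 compared upstream regulators 2 were higher and 0 lower, a share near the 31.1% of all genes. These were Trp53 (p53), by 3.12 over all cells and 1.31 in the window, and Myb, by 1.33 and 1.63, while Myc differed by -0.28. In the window 4 of the 7 were higher and 0 lower, where 21.7% of all genes were higher and 11.7% lower. Myc was 1.71 higher in proNeu-1 than in IG2, and 2.22 in the window.

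Relations across cells were computed as descriptions for the 45 pairs of members over 96 cells of 1 sample. All of these points vary in genes detected: rho with genes detected was 0.43 for Ccnd2, 0.39 for Cdk4, 0.36 for Cdk2 and -0.34 for Cdkn1b. Of the 45 pairs, 1 had a rho of 0.3 or more in size, Ccne2 with Cdkn1b at -0.34 (r -0.29). It was -0.22 in cells numbered 078 and -0.45 in 079. By group it was -0.22 in IG2, -0.02 in proNeu-1, -0.54 in Multi-Lin-1 and -0.31 without a state. After a regression of ranks on genes detected, the rho of this pair was -0.19, under 0.3 in size. Among cells with 3000 to 4500 genes detected it was -0.29 (r -0.20). The D cyclins showed little relation to their kinase: Cdk4 had rho 0.19 with Ccnd2 and -0.10 with Ccnd3.

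The members took different sides of a score for S phase, the mean log2 value of 19 S phase genes. Ccne2 had rho 0.48 (r 0.42) with it, and 0.33 in IG2, 0.79 in proNeu-1, 0.55 in Multi-Lin-1 and 0.31 without a state. Cdkn1b had rho -0.39 (r -0.37), and -0.14, -0.45, -0.48 and -0.19 in the same groups. After a regression of ranks on genes detected, rho was 0.37 for Ccne2 and -0.22 for Cdkn1b, so the relation of Cdkn1b was weaker once genes detected were taken out. Cdk4 (0.46), Ccnd2 (0.38), Ccnd3 (0.37), Cdk2 (0.36), Ccne1 (0.33) and Cdk6 (0.29) were positive, and after the regression lay between 0.05 (Ccnd2) and 0.32 (Ccnd3).

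Ccnd3 differed from Ccnd2 in its relation to the phases within IG2, a pattern noted after the values were seen. Over the 31 IG2 cells Ccnd3 had rho -0.59 (r -0.59) with the score of 20 G2/M genes and 0.45 (r 0.45) with the S phase score. The S phase value was 0.47 in proNeu-1, 0.34 in Multi-Lin-1 and 0.30 without a state. The G2/M value was -0.61 in the 16 cells numbered 078 and -0.59 in the 15 numbered 079. In the other groups it was -0.30 in proNeu-1, 0.14 in Multi-Lin-1 and 0.05 without a state, and over all cells -0.03. Ccnd2 had rho -0.03 with the G2/M score and 0.19 with the S phase score in IG2.

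**Figure D4:**
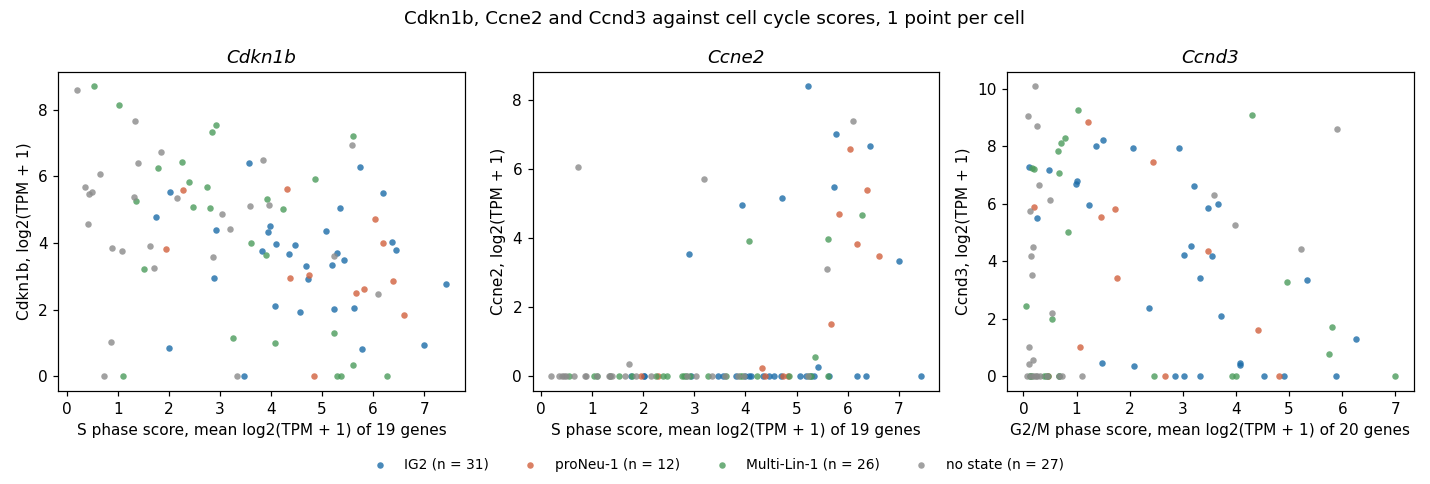
Expression as log2(TPM + 1) of Cdkn1b and Ccne2 against the S phase score (mean of 19 genes) and of Ccnd3 against the G2/M score (mean of 20 genes), 1 point per cell, coloured by state. Cells with Ccne2 lie mostly at the high end of the S phase score (rho 0.48), Cdkn1b declines along it (rho -0.39), and the IG2 cells slope down in the Ccnd3 panel (rho -0.59, n = 31).

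For each widely detected member, the genes of most like pattern over the 96 cells were listed, out of 8043 genes, requiring a positive rho in both label numbers. Cdk4 was most like Nhp2, a part of the small nucleolar RNA machinery (rho 0.54), the kinase gene Mapkapk3 (0.51) and Eif3b, a translation initiation factor subunit (0.49), and the same 3 led after the regression on genes detected. Cdk2 was most like Pcna, the sliding clamp of DNA replication (0.44, and 0.34 after the regression), Lrrc59 (0.43) and Mrpl18 (0.43). In Multi-Lin-1 alone the rho of Cdk2 with Pcna was 0.70. Ccnd2 was most like Vdac3, a mitochondrial channel gene (0.48, and 0.43 after the regression), and Ccnd3 like Orc6, a subunit of the origin recognition complex (0.39), which left the first 3 after the regression, when Emp3 led (0.36). Cdkn1b was most like Slc45a3 (0.41), the AP-1 gene Jund (0.36) and the ribosomal protein gene Rpl17 (0.36), and after the regression Rpl12 led (0.35) and Slc45a3 alone of these stayed among the first 3. These are the top of long lists, and with sparse values they are given as a description only.

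Splicing was described from deposited percent spliced in (PSI) values, which measure how much of the reads at a splice choice use the listed junction. Members had 71 of 80855 events, and 39 of the 71 had a value in at least 10 cells. Ccnd1 and Cdkn1b had 0 events. Read counts behind the values are unknown, and a single cell was usually at exactly 0 or 1: of 1179 values of the 39 events, 2.63% lay between, against 6.81% for all events with values in 10 cells. Cdk4 had values in 73 to 77 cells for its 9 events, the most cells of any member, and 0 of these had a mean PSI between 10 and 90%. Of the 39 events of members 4 did (10.3%), against 15.9% of all events with values in 10 cells. Reads into intron 4 of Cdk4 had a mean PSI of 0.0166 (n = 77 cells) and the junction across intron 3 one of 0.986 (n = 76).

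Ccnd3 has annotated first exons at several places. The junction out of the exon that ends at 47593852 on chromosome 17 was at a PSI of 1 in 21 of 21 cells, set against a junction from an exon that ends at 47594405. Both join the same downstream position, so the value does not compare this exon with the distant first exons, the most common of which ends at 47505266. The junction from that one into the exon at 47578709 had a value in 1 cell, where it was 1. In Cdk2 the cells divided over a cassette exon, exon 6 of transcript ENSMUST00000026416, which lies at chr10:128699976-128700119 on GRCm38 (minus strand). It is wholly coding, 144 bases long and thus 48 codons in frame, and gives the longer Cdk2 protein. It is printed, from GENCODE on GRCm38, because it was the only cassette exon of a member with a mean PSI between 10 and 90%; the 1 other such event, a Cdk6 junction between exons 4 and 5, was set against a junction within the intron (mean 0.64, 14 cells).
Cdk2 exon 6: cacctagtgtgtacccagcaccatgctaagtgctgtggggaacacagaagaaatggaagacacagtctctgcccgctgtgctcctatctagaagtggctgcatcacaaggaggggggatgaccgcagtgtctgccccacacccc
Inclusion of its upstream junction had values in 11 cells, with 5 cells at 0, 5 at 1 and 1 at 0.556, a mean of 0.51. The downstream junction had values in 10 cells, 5 at 0 and 5 at 1. These junctions and the skipping junction (12 cells, mean 0.44) describe the same splice choice, so their values are not independent. With 7 IG2 cells, 2 of proNeu-1, 1 of Multi-Lin-1 and 1 without a state, no comparison of states was possible. The junction of Cdk2 exons 8 and 9 was listed as retained in 14 of 14 cells, in a place where 3 of 7 annotated transcripts have an exon across the intron.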

How the data were processed

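Single GMP were profiled with SMARTer cDNA and Nextera XT libraries, per the labels' protocols. Expression was deposited by the authors as log2 values per gene and cell, read here as log2(TPM + 1) because the values transformed back sum to 1e+06 in each cell. Splicing was deposited by the authors as fractions (PSI) per event, without read counts. The submitters' processing notes name Bowtie2, RSEM, STAR, mm9 and mm10, with no versions or roles. Of 47 junctions of the members, 40 have both ends at exon ends of GENCODE vM21 on GRCm38 (mm10). Depth per cell is unknown, and genes detected stood in for it. The table has 1142 PSI columns and the annotation 511 entries that no label maps, not analysed here.

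The members and the 13 gene lists (147 genes) were chosen with earlier results of these data known. Named genes are the members, the list genes, the 3 most alike genes per widely detected member, and the members' splicing events with values in at least 10 cells. Differences used means over cells and a rule of 1 log2, with no test. Shares have exact Clopper-Pearson intervals (95%), and a share of 0 its limit at 3 counts; both cover counting of cells only. Functions were tested on simulated data. Alternatives were other TPM levels, each label number, cells with 3000 to 4500 genes, rescaling without the 50 highest genes, a pseudocount of 10, no filter, a rule of 2 log2, Pearson's r and a rank regression on genes detected. Values were computed with pandas 2.3.3 and NumPy 2.4.6, intervals with SciPy 1.17.1 and figures with matplotlib 3.10.9, under Python 3.11.15.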

Additional observations from a re-analysis of the deposited data

How the results depend on the processing

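Counts of members were recomputed under each alternative. At a TPM of 30 in place of 1, the members detected in at least 50% of cells numbered 1 in place of 5 over all cells, 2 in place of 5 in IG2, 2 in place of 6 in proNeu-1, 2 in place of 5 in Multi-Lin-1 and 2 in place of 4 without a state, and at a TPM of 5 the last was 2. In cells numbered 079 the Multi-Lin-1 count was 3. Over all cells at a TPM of 1, 6.88% of all genes were in at least as many cells as Ccnd3. Such shares of all genes are not given by state. In IG2 minus Multi-Lin-1, 2 members were past the rule, against 1 in cells numbered 078 (Cdk4), 5 in 079 (Cdk4, Ccnd2, Ccnd3, Ccne2 and, lower, Cdkn1b) and 1 under a rule of 2 log2. At 3000 to 4500 genes 2 were past it, Cdk4 and Ccne2, without Ccnd2. In proNeu-1 minus IG2, 0 were, against 1 in 078 (Cdk2), 2 in 079 (Ccnd2 and Cdk4) and 1 at 3000 to 4500 genes (Ccnd3). Without a state minus Multi-Lin-1, 2 were, against 5 in 078, 3 in 079, 1 with a pseudocount of 10 and 0 under a rule of 2 log2, and the 2 found at 3000 to 4500 genes were others, Ccne1 and Ccne2. Pairs of members with a rho of at least 0.3 in size numbered 1, against 0 in 078, 6 in 079, 0 at 3000 to 4500 genes, 0 by Pearson's r and 5 after the rank regression, each of the 5 with Ccnd1 or Cdkn1a, which few cells held. Splicing events with values in at least 10 cells numbered 39, against 24 in 078 and 11 in 079, which hold fewer cells, and 21 with values in at least 20 cells. Of the shares of cells recomputed, 232 stayed within the exact interval and 68 did not, and 0 called differences changed sign. The cause of these changes was not tested. No paired analysis was possible because there is 1 group and no label pairs cells. Depth per cell is unknown and limits all values near 0.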
